A study of Arabidopsis thaliana with 18 samples.

Results

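Of the 476 distinct miRNA sequences counted in these small RNA libraries of Arabidopsis thaliana rosette leaves, 39 were exactly 22 nt long. They were chosen by length alone, each counted once, and they belong to 29 of the 101 miRNA families of the table. Plants of the Col-0 accession, 5 to 6 weeks old, were sprayed with spores of the necrotrophic fungus Alternaria brassicicola (1000000 spores per ml with 0.01% of the wetting agent Silwet L 77) and harvested after 3 days, or were mock treated, or were left untreated. The labels do not say what the mock spray held. From each treatment small RNA was sequenced after immunoprecipitation with an antibody to ARGONAUTE1 (AGO1 libraries) and from total RNA (total libraries), with 3 biological replicates in each of the 6 groups: Alternaria AGO1, mock AGO1, untreated AGO1, Alternaria total, mock total and untreated total. No mutant or transgene was used.

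Plant miRNAs are cut from hairpin transcripts by Dicer-like enzymes and loaded as single strands into ARGONAUTE proteins, of which AGO1 prefers strands that begin with U. Most are 21 nt long. Those of 22 nt are known for a further property: an AGO1 complex that carries one can, after cutting its target, recruit the enzymes that turn the target into phased secondary small RNAs, as miR173 does with the TAS1 and TAS2 transcripts.

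All 39 sequences lay inside an annotated MIR gene on its own strand, and 33 of them matched the genome once. Of the 39, 20 had the same ends as a mature miRNA annotated at 22 nt, 9 were an annotated 21-nt miRNA with 1 more base at the 3′ end (marked +1 after the name) and 1 had the additional base at the 5′ end (marked +1 before it). Another 5 were stretches of longer mature miRNAs, named with the first and last base of the stretch in brackets, and 4 came from hairpin arms with no annotated mature miRNA at the site. The arms were nearly even, with 20 sequences from 3′ arms and 19 from 5′ arms. The first base was T (U in the RNA) in 28, G in 9 and A in 2, and none began with C.

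The sequences on which the results below turn are given 5′ to 3′ as the deposited table writes them, with the seed (bases 2 to 8) in capitals. The first group holds the 3 families of known secondary siRNA triggers that had a 22-nt sequence.

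miR173-5p: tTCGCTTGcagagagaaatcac

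miR472-3p: tTTTTCCTactccgcccatacc

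miR393a/b-5p: tCCAAAGGgatcgcattgatcc

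The second group holds the most abundant other sequences and those with the largest differences between AGO1 and total libraries.

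miR167d: tGAAGCTGccagcatgatctgg

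miR166a/b/c/d-3p+1: tCGGACCAggcttcattccccc

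miR850: tAAGATCCggactacaacaaag

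miR162a/b-5p: tGGAGGCAgcggttcatcgatc

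miR447a/b-3p: tTGGGGACgagatgttttgttg

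miR156b-3p(1-22): tGCTCACCtctctttctgtcag

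miR156b-3p(2-23): gCTCACCTctctttctgtcagt

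miR156c-3p: gCTCACTGctctatctgtcaga

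The third group holds 2 of the 5 sequences that were higher in total libraries after Alternaria than in untreated leaves, and miR5996, whose 21-nt partner was not listed in AGO1 libraries.

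MIR399f 5′ arm: gGGCAAGAtcaccattggcaga

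miR163(1-22): tTGAAGAGgacttggaacttcg

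miR5996: tGACATCCagatagaagctttg

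In the TAIR10.1 annotation miR173-5p lies at chr3:8236161-8236182 (plus strand, MIR173), miR472-3p at chr1:4182143-4182164 (minus strand, MIR472) and miR167d at chr1:11137556-11137577 (plus strand, MIR167d). miR393a/b-5p comes from MIR393a (chr2:16652111-16652132) and MIR393b (chr3:20691657-20691678), both on the plus strand, and its reads cannot be assigned to either. miR850 lies at chr4:7845756-7845777 in an intron of the noncoding gene AT4G13495, and miR5996 at chr4:7882848-7882869 within UNE15, in an intron or in an exon outside the coding sequence depending on the transcript. MIR399f holds its sequence at chr2:14445009-14445030 and MIR163 at chr1:24884359-24884380. Of all 39, 15 lay within another gene on the same strand. Only 2 seeds were shared: that of miR156c-3p with miR156a-3p, and that of miR167d with miR167a-5p+1.

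In units of 1000000 reads, the AGO1 libraries held 10.8 to 20.3 of miRNA, which were 77.8% to 83.4% of their genome-matched reads, and the total libraries 0.754 to 3.03, which were 2.53% to 13.2%. A sequence with fewer than 15 reads in a run does not appear in that run, so a library listed at 0 over its 2 runs can hold up to 28 reads. Levels are given below as scaled CPM, that is, reads per 1000000 miRNA reads after a trimmed-mean scaling of all 18 libraries. On that scale the listing limit was 2.26 to 4.31 in the AGO1 libraries and 4.72 to 20.0 in the total libraries, so low levels are visible in AGO1 libraries that are not visible in total ones. Treatment comparisons within a library type were scaled within that type alone, so their log2 changes can depart from the levels printed. The immunoprecipitation and its library preparation go together with the AGO1 group, so binding to AGO1 and preparation cannot be told apart.

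The 22-nt sequences took a smaller share of miRNA reads in AGO1 libraries than in total libraries. The share was 0.260%, 0.265% and 0.227% in Alternaria AGO1, 0.264%, 0.294% and 0.356% in mock AGO1 and 0.235%, 0.291% and 0.402% in untreated AGO1. It was 2.09%, 2.07% and 2.22% in Alternaria total, 2.35%, 1.54% and 3.25% in mock total and 1.73%, 1.76% and 1.99% in untreated total. Every AGO1 library lay below every total library. The mean was 0.288% ± 0.0571 in AGO1 libraries and 2.11% ± 0.498 in total libraries (SD, n = 9 each), a difference of -1.82 percentage points (two-sided exact permutation test, p = 4.11e-05, the smallest this design can give; 0.000411 adjusted over 10 comparisons). The share is a sum over reads. In total libraries miR167d and miR173-5p together held 85.2% of the 22-nt reads, against 8.88% and 2.68% in AGO1 libraries. The difference thus leans on these 2 sequences and does not describe 22-nt sequences in general. The share without them is not given here.

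**Figure D1:**
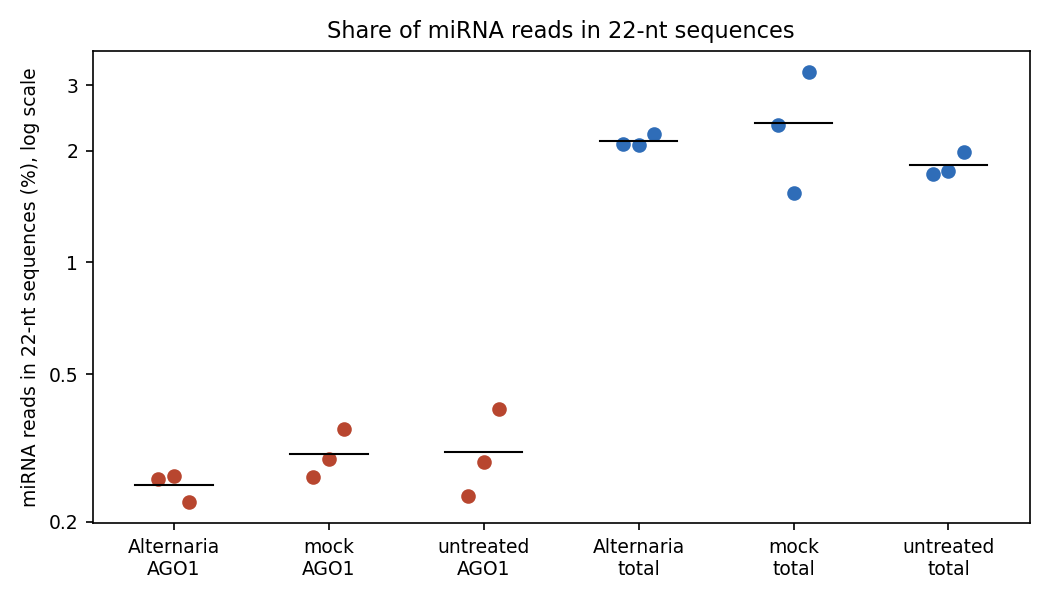
Share of miRNA reads in 22-nt sequences, in percent on a log scale, for each library (points) and the mean of each group (lines). AGO1 libraries lie between 0.227% and 0.402%, and total libraries between 1.54% and 3.25%.

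Between treatments the share did not pass a test within either library type, and 3 libraries against 3 cannot give an exact permutation p below 0.1. The Alternaria total libraries all lay above the untreated total ones, with means of 2.13% ± 0.0805 and 1.83% ± 0.139 (SD, n = 3 each; exact permutation p = 0.1, adjusted 0.2). Against the mock total mean of 2.38% ± 0.857 the difference of Alternaria was -0.256 percentage points (exact permutation p = 0.7, n = 3 each), which is smaller than the spread of the mock libraries and turned to 0.180 without mock total replicate 3. In the AGO1 libraries the means were 0.251% ± 0.0211 after Alternaria, 0.305% ± 0.0471 after mock and 0.309% ± 0.0850 in untreated leaves (SD, n = 3 each).

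A few sequences made up most of the 22-nt reads, and they were not the same in the 2 library types. In AGO1 libraries miR472-3p alone held 32.5% and with miR166a/b/c/d-3p+1 64.4%; these, miR850 (16.8%) and miR167d (8.88%) together held 90.1% of the 22-nt reads. In total libraries miR167d (49.1%) and miR173-5p (36.2%) held 85.2%, followed by miR472-3p (6.99%) and miR162a/b-5p (1.27%). miR167 targets the auxin response factor genes ARF6 and ARF8, miR166 the HD-ZIP III transcription factor genes, and miR472 transcripts of nucleotide-binding leucine-rich repeat immune receptors.

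By sequence, 34 of the 39 were listed in at least 3 libraries (all but +1miR172a/b, miR156a-3p, miR163(2-23), miR171a-3p+1 and miR5648-5p) and entered the comparison of AGO1 with total libraries over the 3 treatments. By limma with Benjamini-Hochberg adjustment over all 387 sequences tested, 13 were higher in AGO1 libraries and 17 lower. Across all sequences, 42.1% were called higher and 44.4% lower (86.6% in either direction), so most sequences of any length differed between the library types. The median log2 difference was -0.82 for the 22-nt sequences and -0.15 for all sequences tested. With every value under the highest listing limit raised to it, in a setting added after the data were seen, 20 of the 22-nt sequences remained testable, of which 6 were higher and 12 lower, against 32.2% higher and 43.2% lower of all 273 sequences (75.5% in either direction). Of the 13 calls of higher in AGO1, 7 were sequences listed at 0 in every total library with AGO1 means under the mean listing limit of the total libraries, and these 7 turned negative when zeros were set to the limit. For the 7, which are miR777, miR833a-5p, miR833a-3p, miR830-5p, miR5629, miR397a+1 and miR853, no direction can be given over the 3 treatments. In Alternaria leaves alone miR777 had an AGO1 mean of 15.4 ± 1.42 scaled CPM (SD, n = 3). That lay above the listing limits of the Alternaria total libraries (9.91, 7.21 and 4.72), which all listed it at 0. Among the calls of lower, miR167a-5p+1 and the MIR399a and MIR399d 5′ arms were at 0 in every AGO1 library. Their total means of 3.18, 2.70 and 2.67 lay under the mean AGO1 listing limit of 3.25. Over the 3 treatments no direction can be given for them either. miR157a/b-3p+1 and miR164a+1 were also at 0 in every AGO1 library. Listed in 4 total libraries each, they had total means of 3.75 and 3.33, just above that limit. Neither remained testable with values raised to the highest limit. Within treatments, 79.4% of the 34 were called in either direction in Alternaria leaves (72.4% of all sequences), 50.0% in mock leaves (65.1%) and 58.8% in untreated leaves (69.5%).

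The comparison is firmest for the 9 sequences listed in all 18 libraries, of which 4 were higher and 5 lower in AGO1 libraries (48 and 48 of all 107 such sequences). Among the known triggers, miR173-5p was far lower in AGO1 libraries. Its level had a lowest, median and highest value of 103, 127 and 184 scaled CPM in AGO1 libraries, against 2498, 4642 and 5515 in total libraries. No library of one type came near those of the other, and the log2 difference was -4.86 ± 0.17 (SE; limma adjusted p = 1.70e-13). miR472-3p, the trigger at immune receptor transcripts, had 1082, 1667 and 2509 scaled CPM in AGO1 libraries, against 557, 923 and 1401 in total libraries. The ranges overlapped, and the log2 difference of 0.86 ± 0.20 (limma adjusted p = 0.000772) became -0.84 when libraries were scaled by their totals alone, a scaling that moved the median of all sequences to -1.27; its sign thus depends on the scaling, while it lay above the median of all sequences in both. miR393a/b-5p, which targets the auxin receptor genes TIR1 and AFB2, had 98.3, 141 and 210 scaled CPM in AGO1 libraries, against 6.37, 34.7 and 77.5 in total libraries. Its AGO1 libraries all lay above its total ones (log2 2.04 ± 0.38, limma adjusted p = 0.000123), but with library totals alone, where the median of all sequences was -1.27, the difference was 0.37 and did not pass.

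Of the 9 families in a list of known secondary siRNA triggers, 8 were in the table and the 3 above had a 22-nt sequence. miR161, miR168, miR390, miR400 and miR845 had sequences of at most 21 nt. In the miR173 family the 22-nt sequence held 98.3% of the reads of the family in AGO1 libraries and 99.1% in total libraries. In the miR472 family it held 83.3% in AGO1 libraries and 83.5% in total libraries, and in the miR393 family 46.8% in AGO1 libraries and 16.1% in total libraries. The list was chosen with results of these data known, and the shares are descriptions.

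Among the abundant other sequences, miR167d was lower in AGO1 libraries while miR166a/b/c/d-3p+1 and miR850 were higher. miR167d had a lowest, median and highest level of 228, 451 and 888 scaled CPM in AGO1 libraries, against 2824, 4958 and 10961 in total libraries (log2 -3.62 ± 0.27, limma adjusted p = 4.07e-09). miR166a/b/c/d-3p+1, which is the common miR166 with another C at its 3′ end, had 1074, 1607 and 2617 in AGO1 libraries, against 70.7, 118 and 141 in total libraries (log2 3.89 ± 0.18, limma adjusted p = 7.58e-12). In none of these did the ranges of the library types overlap. miR850 showed the largest positive difference of the 9 sequences listed in every library, with 692, 782 and 1109 scaled CPM in AGO1 libraries, against 15.2, 23.1 and 40.0 in total libraries (log2 5.11 ± 0.18, limma adjusted p = 2.77e-13). miR447a/b-3p, from the tandem genes MIR447a and MIR447b, was lower, with 1.86, 8.47 and 16.8 in AGO1 libraries, against 40.0, 86.4 and 108 in total libraries (log2 -3.17 ± 0.32, limma adjusted p = 1.61e-07). The remaining 2, miR5996 (-0.85) and the MIR825 5′ arm (-0.79), were called lower but became 1.18 and 1.25 when libraries were scaled to genome-matched reads, a scaling that moved the median of all sequences to 1.18. Under 8 settings of scaling, pseudocount, listing limit and test, 3 sequences were called higher in each, miR850, miR166a/b/c/d-3p+1 and miR156b-3p(1-22). In each of the 8, 7 were called lower, miR173-5p, miR167d, miR447a/b-3p, miR162a/b-5p, miR156b-3p(2-23), miR156c-3p and the MIR399f 5′ arm.

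**Figure D2:**
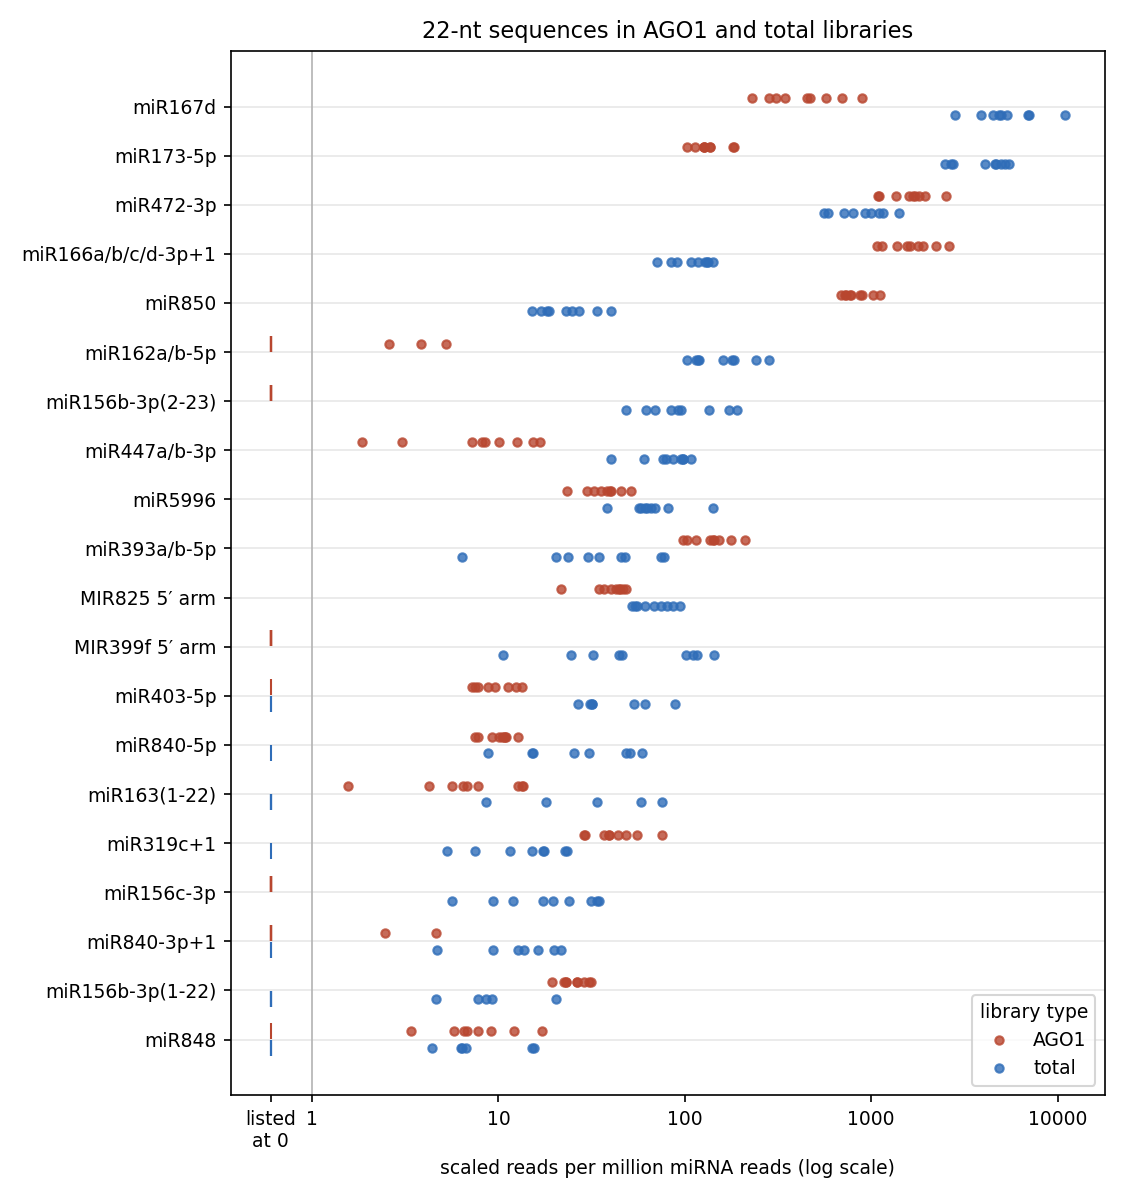
Level of 20 of the 22-nt sequences in scaled CPM (log scale), with 1 point per library, AGO1 above total; ticks at the left edge are libraries listed at 0. miR850 and miR166a/b/c/d-3p+1 lie to the right in AGO1 libraries, whereas miR167d, miR173-5p and miR162a/b-5p lie to the right in total libraries.

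Some 22-nt sequences of total libraries were not listed in AGO1 libraries at all. miR156b-3p(2-23) was at 0 in all 9 AGO1 libraries, against 48.4, 92.1 and 189 scaled CPM (lowest, median and highest) in total libraries, which against the mean AGO1 listing limit is at least 32.4-fold lower in AGO1 libraries (at least 26.9-fold to 38.9-fold within the 3 treatments). The MIR399f 5′ arm was also at 0 in every AGO1 library, against 10.6, 46.0 and 143 in total libraries. Its total levels differed between treatments, and the bound was at least 31.3-fold lower in AGO1 libraries in Alternaria leaves, 21.1-fold in mock leaves and 8.11-fold in untreated leaves. miR156c-3p, the passenger strand of miR156c, was at 0 in AGO1 libraries as well, against 5.67, 19.5 and 34.8 in total libraries, at least 6.41-fold lower over the treatments and at least 2.95-fold lower in Alternaria leaves, the lowest bound of the 3. These bounds cover counting limits only. miR162a/b-5p, the passenger strand of the miRNA that targets DCL1, was listed in 3 of 9 AGO1 libraries at 5.22 or less, against 103, 161 and 283 scaled CPM in total libraries (log2 -6.56 ± 0.37 with zeros as 0, -5.10 with zeros at the listing limit).

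The 2 stretches of miR156b-3p differ by a shift of 1 base and stood in opposite order. The stretch that begins with T had 19.3, 26.5 and 31.5 scaled CPM in AGO1 libraries, against 0, 4.65 and 20.4 in total libraries, of which 5 listed it. The log2 difference was 2.87 ± 0.41 with zeros as 0 (limma adjusted p = 8.52e-06). Its size depends on the zeros. It was 1.15 with zeros at the listing limit, and 0.34 with every value under the highest limit raised to it. The stretch that begins 1 base later, with G, was the one not listed in AGO1 libraries. In MIR163 the stretch that begins with T, miR163(1-22), was listed in all 9 AGO1 libraries and in 5 total libraries, while the one that begins with G, miR163(3-24), was listed in no AGO1 library and in 5 total libraries. The stretch between them, miR163(2-23), also begins with T, but was listed in no AGO1 library and in 1 total library, with 15 reads.

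All 9 sequences of 22 nt that began with G were at 0 in every AGO1 library. Only sequences listed in some library were counted, so the listing of all 9 in total libraries follows from this. Several were scarce there: miR156a-3p, +1miR172a/b and the MIR399a and MIR399d 5′ arms had total means of 0.281, 0.996, 2.70 and 2.67 scaled CPM. These lie under the mean AGO1 listing limit of 3.25, so for them a 0 in AGO1 libraries gives no direction over the 3 treatments. In Alternaria leaves alone the MIR399d 5′ arm had a total mean of 8.00, above the Alternaria AGO1 listing limits of 3.28, 4.24 and 4.31. There it was called lower in AGO1 libraries (log2 -3.11 ± 0.31 with zeros as 0, limma adjusted p = 2.33e-07). Of the 28 that began with T, 25 were listed in an AGO1 library and 20 in a total library. Of the 2 that began with A, miR840-5p was listed in AGO1 libraries and miR852+1 was not. Over the sequences of all other lengths, 212 of 239 that began with T were listed in an AGO1 library (88.7%), as were 20 of 81 that began with G (24.7%), 18 of 59 that began with A (30.5%) and 34 of 58 that began with C (58.6%). Among those of 21 nt, 93 of the 98 that began with T and 7 of the 22 that began with G were listed in an AGO1 library. These counts are descriptions, and no test was made of whether 22-nt sequences differ from other lengths. A first T did not go with a higher level in AGO1 libraries for every sequence: of the 25 T-first 22-nt sequences tested, 13 were called higher and 9 lower, and with the common listing limit 6 of 15 were higher and 8 lower. At 21 nt, 53 of 89 T-first sequences were higher and 26 lower.

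**Figure D3:**
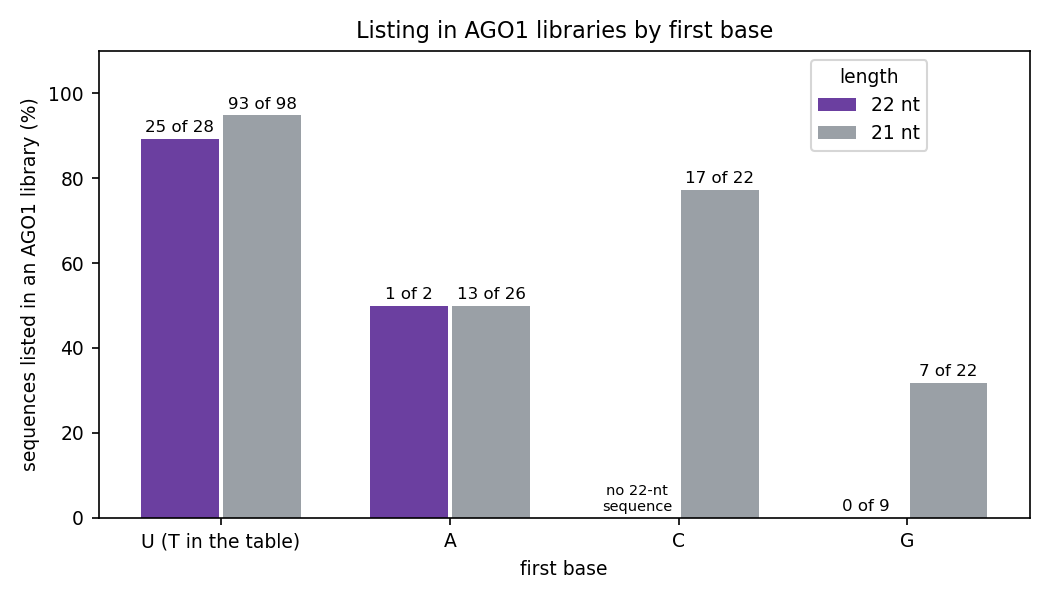
Percent of sequences listed in at least 1 AGO1 library, by first base, for 22-nt (left bars) and 21-nt sequences (right bars), with counts above the bars. None of the 9 G-first 22-nt sequences was listed, against 25 of 28 T-first ones. Several of the 9 had total means under the mean AGO1 listing limit.

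Of the 39 sequences, 27 contained a 21-nt sequence of the same family that was also in the table. In 18 of the 27 the 21-nt partner lacked the 3′ base, in 3 it lacked the 5′ base, and in 6 partners of both kinds were listed. A partner without the 3′ base has the same seed, and one without the 5′ base has a seed moved by 1 base, as these 21-nt partners of miR393a/b-5p (3′ base absent), miR167d (3′ base absent) and miR472-3p (5′ base absent) show.

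miR393, 21 nt: tCCAAAGGgatcgcattgatc

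miR167d, 21 nt: tGAAGCTGccagcatgatctg

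miR472, 21 nt: tTTTCCTActccgcccatacc

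For miR393 both lengths of the pair were listed in AGO1 libraries and the 22-nt form alone in total libraries. The 22-nt form made up 48.1%, 53.1% and 64.3% (lowest, median and highest) of the pair in AGO1 libraries, with 11393 reads of 22 nt and 9565 of 21 nt in all. In the total libraries 1308 reads of the 22-nt form were listed and none of the 21-nt form, so with the 21-nt form at the listing limit the 22-nt share was at least 39.1% to 93.7%, depending on the library. These limits overlap the AGO1 range, so no difference in the balance of this pair can be given. Over all sequences of the miR393 family, which has 3 of 21 nt and listed both lengths in every library, the log2 difference of the 22-nt to 21-nt ratio was 2.35 ± 0.28 (limma adjusted p = 2.48e-06).

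miR167d had more of its 21-nt form in AGO1 libraries. The 22-nt form was 66.4%, 87.2% and 91.8% of the pair in AGO1 libraries, with 36801 reads of 22 nt and 6259 of 21 nt, against 99.7%, 99.9% and 100% in total libraries, with 175069 and 265 reads. The ranges did not overlap, and with absent partners at the listing limit the total libraries still lay at 99.3% or more. The test by family pools this pair with that of miR167a, whose 21-nt form was abundant (27946 reads in AGO1 and 327108 in total libraries), and gave a 22-nt to 21-nt ratio that was higher in AGO1 libraries, log2 1.13 ± 0.24 over the contained pairs (limma adjusted p = 0.000789).

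The 21-nt form of miR472 that lacks the 5′ base was a steady minor form. The 22-nt sequence made up 85.7%, 87.1% and 88.7% of that pair in AGO1 libraries, against 86.1%, 89.7% and 91.3% in total libraries, with overlapping ranges. The partner without the 3′ base was rarer, with 3074 reads in AGO1 and 45 in total libraries beside 134480 and 24924 of the 22-nt form. Over both contained pairs the log2 difference of the ratio was -0.57 ± 0.16 (limma adjusted p = 0.00501), and over the whole miR472 family -0.09 ± 0.22 (limma adjusted p = 0.683). miR173 was almost wholly of 22 nt, with no contained 21-nt read listed in AGO1 libraries beside 11118 of 22 nt. In total libraries 393 reads lacked the 3′ base and 43 the 5′ base, beside 128952 of 22 nt.

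miR5996 and miR840 showed differences of opposite sign. The 22-nt form of miR5996 was alone in AGO1 libraries, with 2992 reads and a share of at least 87.8% in each library, while in total libraries it made up 63.9%, 71.2% and 100% of the pair, with 2304 reads of 22 nt and 865 of 21 nt. With the partner at the listing limit in each AGO1 library, the pooled ratio of 22-nt to 21-nt reads was at least 4.46-fold higher in AGO1 libraries, a bound that carries no test. miR840-5p made up 17.7%, 19.7% and 29.9% of the pair with the partner that lacks its 5′ A in AGO1 libraries, against 73.7%, 100% and 100% in the 8 total libraries that listed either, where partners listed at 0 can hold reads. With such partners at the limit the total libraries lay at 36.4% to 89.5%, still above the AGO1 libraries. Over the miR840 family the log2 difference passed with a pseudocount of 1 read (-4.76 ± 0.78, limma adjusted p = 6.34e-05) and with one at the listing limit (-2.96, limma adjusted p = 3.87e-14), so its size depends on the pseudocount. For miR166 the 22-nt form was 0.161% to 0.196% of the pair in AGO1 libraries and 0.142% to 0.193% in total libraries, a log2 difference of 0.07 ± 0.14 (limma adjusted p = 0.642), although both forms were more abundant in AGO1 libraries; the 22-nt form matches 4 MIR166 genes and the 21-nt form 7.

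**Figure D4:**
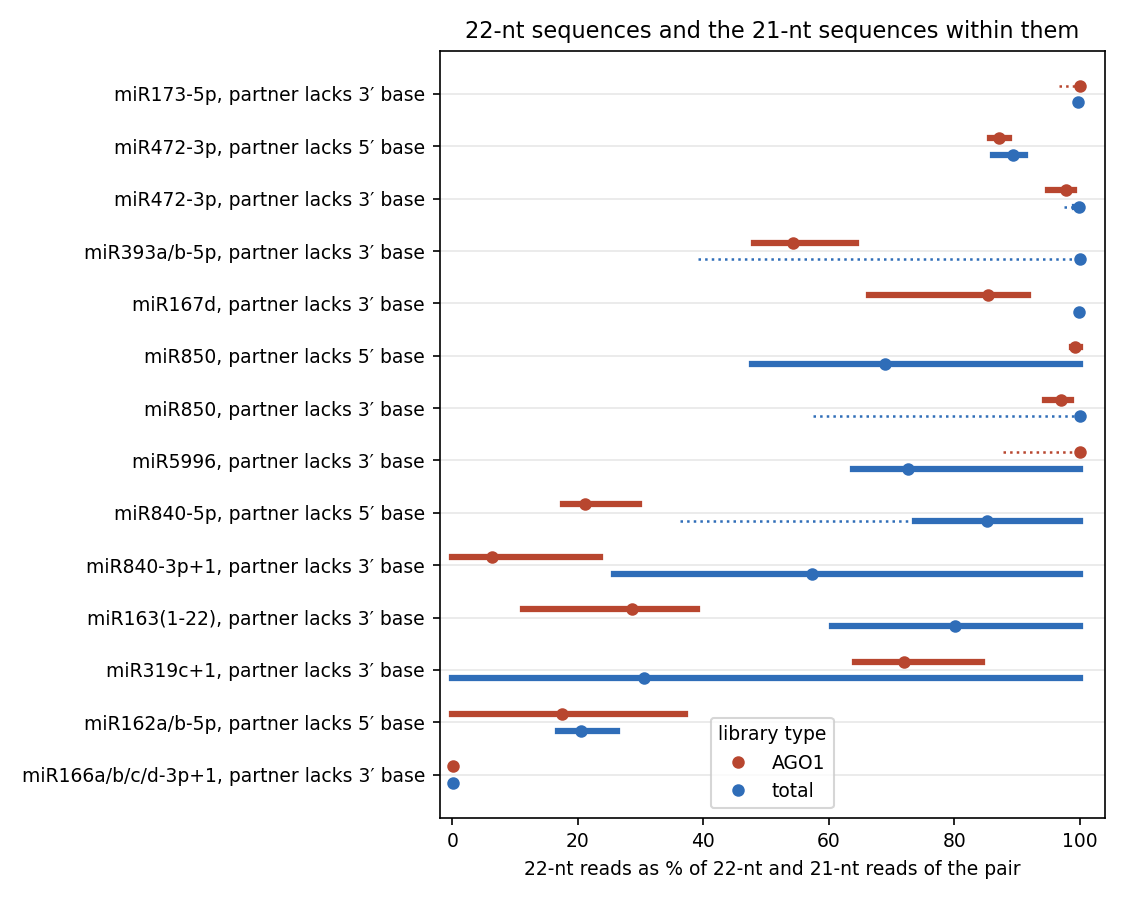
Share of the 22-nt form among the 22-nt and 21-nt reads of 14 pairs, in percent, with AGO1 above total: points are pooled over 9 libraries, bars run from the lowest to the highest library, and dotted lines reach down to the lowest share that a 21-nt partner at the listing limit would give. miR167d has lower shares in AGO1 than in total libraries and miR5996 a higher pooled share, whereas the dotted line of miR393a/b-5p in total libraries reaches down past its AGO1 range.

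By family, 21 could be compared for the ratio of all 22-nt to all 21-nt reads, of which 8 were higher in AGO1 libraries and 10 lower (limma adjusted p under 0.05, 38.1% and 47.6%, or 85.7% in either direction), with a median log2 difference of -0.78. Not all of these compare measured ratios. In 8 of the 21 (miR157, miR164, miR173, miR397, miR399, miR5996, miR833 and miR852) a library type had no library with both lengths listed, and for miR397, miR833 and miR852 neither length was listed in any library of a type. The fits of these 8, with 3 called higher and 3 lower, are set by the pseudocount of 1 read and are given no fold. Of the remaining 13, with both lengths together in at least 3 libraries of each type, 5 were higher in AGO1 libraries and 7 lower. For miR399, 22-nt reads were at 0 in all 9 AGO1 libraries beside 32548 of 21 nt, against 2458 and 6535 in total libraries. For miR162, 124 reads of 22 nt in 3 AGO1 libraries stood beside 1172414 of 21 nt, against 4518 and 381541 in total libraries, and the log2 difference was -8.73 with a pseudocount of 1 read and -5.38 with one at the listing limit. In both families the 22-nt sequence lies on the arm opposite to the main 21-nt miRNA, so that the ratio compares arms as well as lengths. Only 7 families had both lengths in every library, of which miR166 (0.34), miR167 (1.22) and miR393 (2.35) were higher and miR156 (-3.93), miR447 (-5.99) and miR825 (-2.10) lower, and miR472 did not pass. Several of these ratios also compare unlike sequences. In AGO1 libraries, 58 of the 6239015 21-nt reads of miR156 and 67 of the 23662 of miR447 lay within a 22-nt sequence. The MIR825 5′ arm contained no 21-nt sequence. In total libraries none of the 6817 21-nt reads of miR393 was of the contained partner. For miR166 the difference did not pass with a pseudocount at the listing limit (0.21, limma adjusted p = 0.264).

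After Alternaria, few 22-nt sequences differed from untreated leaves, all of them higher and in total libraries, and none passed against mock by limma. Of the 39, 27 could be tested in total libraries. Against mock, none passed (limma adjusted p under 0.05, 1.32% of all 303 sequences called), although 5 had an unadjusted p under 0.05, all higher after Alternaria, and limma-voom called 4. Against untreated leaves, 5 were higher and none lower, 18.5% of those tested beside 11.6% of all sequences called higher and 7.92% lower (19.5% in either direction). The listing limits were 9.91, 7.21 and 4.72 scaled CPM in Alternaria total libraries, against 8.18, 19.9 and 20.0 in untreated total libraries. miRNAs made up 7.76% to 11.7% of the genome-matched reads in Alternaria total libraries, against 2.53% to 2.76% in untreated total libraries. The part of depth in these calls was not tested beyond the settings given. Scaled to genome-matched reads, 18 of the 27 were called higher after Alternaria than in untreated leaves. That scaling moved the median log2 change of all sequences from 0.49 to 2.18, so the count is not particular to 22-nt sequences. The share of all sequences called under it is not given here. Leaving out a library moved the count to between 2 (without Alternaria total replicate 3 or untreated total replicate 3) and 8 (without untreated total replicate 1), and it was 3 without any one of Alternaria total replicate 1, Alternaria total replicate 2 and untreated total replicate 2.

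The MIR399f 5′ arm gave the firmest change. miR399 targets PHO2, a regulator of phosphate uptake, and the 22-nt sequence is the strand opposite to it. Its level was 116, 143 and 110 scaled CPM in Alternaria total libraries, against 44.3, 102 and 46.0 in mock total and 24.5, 10.6 and 32.1 in untreated total libraries. All 3 Alternaria libraries lay above all mock and untreated ones. The log2 change was 2.57 ± 0.47 against untreated leaves (limma adjusted p = 0.00384), and it passed under each of 16 alternatives. Against mock it was 1.16 ± 0.47 (limma adjusted p = 0.237) and did not pass. For mock against untreated leaves it was 1.40 ± 0.47 (limma adjusted p = 0.145) and did not pass either. Of the 3 testable 21-nt sequences of miR399, 1 was called higher against untreated leaves, with log2 changes of 0.68 to 3.51.

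miR163(1-22) is the 5′ part of the 24-nt miR163, which targets methyltransferase genes of the SAMT family. It had 33.6, 58.0 and 75.6 scaled CPM in Alternaria total libraries, against 8.57, 0 and 18.1 in mock total libraries and 0 in all 3 untreated total libraries. The mean of 55.7 after Alternaria was at least 3.48-fold higher than the mean listing limit of the untreated libraries (limma adjusted p = 0.00784; called under each of 15 alternatives). Against mock the log2 change was 3.64 ± 1.40 (limma adjusted p = 0.210). For mock against untreated leaves it was 2.99 ± 1.40 (limma adjusted p = 0.349). In AGO1 libraries the same sequence had 13.3, 12.7 and 13.5 scaled CPM after Alternaria, against 1.57, 6.75 and 6.45 after mock and 7.74, 5.64 and 4.22 in untreated leaves. The Alternaria AGO1 libraries all lay above the others, but neither difference passed, at log2 1.04 ± 0.41 against mock (limma adjusted p = 0.264) and 0.75 ± 0.41 against untreated leaves (limma adjusted p = 0.277). With the replicate number as a block in a fit to the 6 Alternaria and mock AGO1 libraries, which was added after the data were seen, the difference from mock was 1.08 ± 0.37 and passed (limma adjusted p = 0.0339). The other stretch of the same miRNA, miR163(3-24), had 26.2, 19.6 and 32.4 scaled CPM in Alternaria total libraries, against 0, 0 and 2.68 in mock total and 12.9, 0 and 0 in untreated total libraries. Its Alternaria libraries all lay above the others, but neither difference passed, at log2 4.80 ± 1.48 against mock (limma adjusted p = 0.112) and 4.03 ± 1.48 against untreated leaves (limma adjusted p = 0.0665).

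The other 3 calls against untreated leaves did not pass with zeros set to the listing limit. miR403-5p, the strand opposite to the miRNA that targets AGO2, had 31.9, 53.1 and 88.7 scaled CPM in Alternaria total libraries, against 31.7, 30.8 and 61.0 in mock total and 26.9, 0 and 0 in untreated total libraries (log2 4.73 ± 1.28, limma adjusted p = 0.0204; called in 11 of 16 alternatives). miR840-3p+1 had 19.8, 13.7 and 21.6 in Alternaria total libraries, against 16.4, 9.36 and 12.7 in mock total and 4.68, 0 and 0 in untreated total libraries (log2 4.00 ± 1.27, limma adjusted p = 0.0391; called in 6 of 16 alternatives). For mock against untreated leaves the log2 change was already 4.17 ± 1.28 for miR403-5p and 3.37 ± 1.27 for miR840-3p+1. Neither passed (limma adjusted p = 0.0984 and 0.223). The MIR399d 5′ arm had 5.31, 11.6 and 7.08 in Alternaria total libraries and was at 0 in all mock and untreated total libraries, but the mean listing limit of the untreated libraries lies above its mean of 8.00, so no fold can be given.

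**Figure D5:**
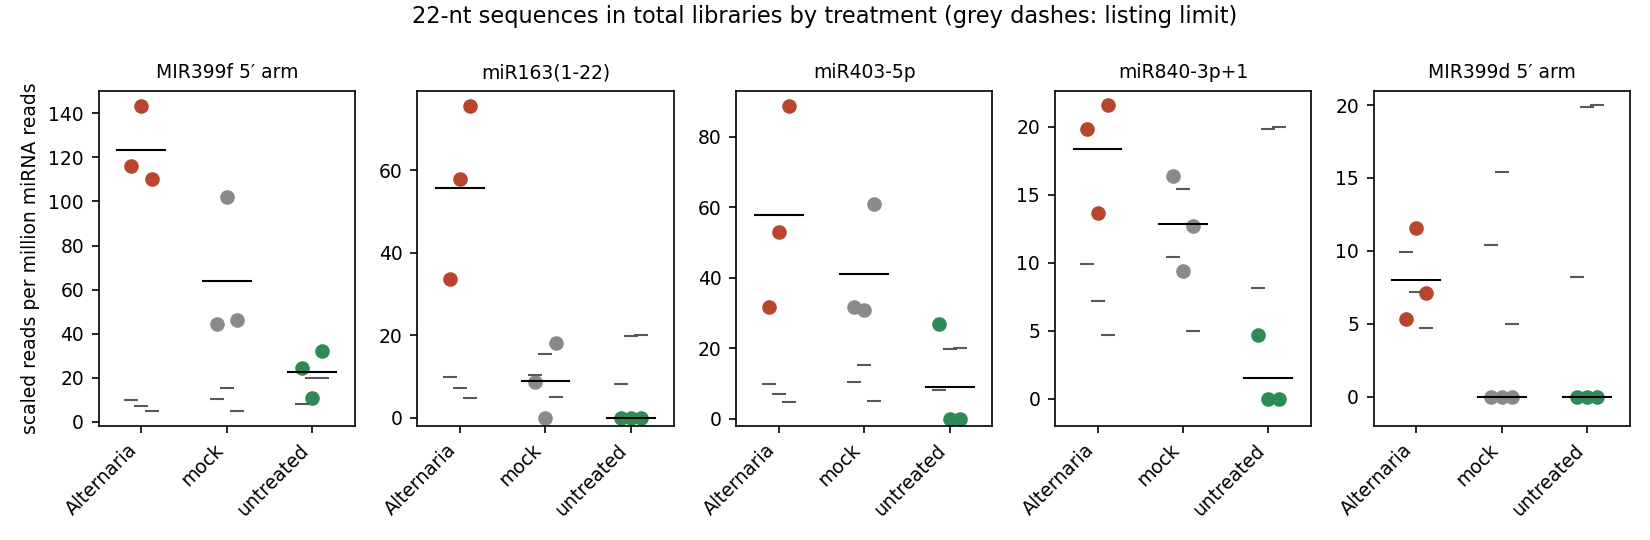
Level in total libraries, in scaled CPM, of the 5 sequences called higher in Alternaria than in untreated leaves: points are libraries, black lines group means and grey dashes the listing limit of each library (a point can lie under its dash, because 15 reads in 1 run suffice to be listed). The MIR399f 5′ arm and miR163(1-22) stand clear of the limit after Alternaria, and the MIR399d 5′ arm does not.

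The trigger miRNAs and the abundant miR167d were not called between treatments in either library type. In total libraries the log2 change of Alternaria against mock was 0.50 ± 0.31 for miR173-5p (limma adjusted p = 0.411), 0.55 ± 0.34 for miR472-3p (0.411) and -0.54 ± 0.79 for miR393a/b-5p (0.759). miR173-5p had 4642, 4957 and 5515 scaled CPM in Alternaria total libraries, against 4065, 2755 and 5216 in mock total and 2498, 4649 and 2669 in untreated total libraries, and the groups overlapped. miR472-3p had 1401, 923 and 711 in Alternaria total libraries, against 557, 1162 and 583 in mock total and 1106, 998 and 795 in untreated total libraries. In AGO1 libraries it had 1807, 1108 and 1359 after Alternaria, against 1721, 1082 and 1945 after mock and 1598, 1667 and 2509 in untreated leaves, and the log2 change of -0.72 ± 0.28 against untreated leaves did not pass (limma adjusted p = 0.146).

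In AGO1 libraries 23 of the 39 could be tested and limma called none in any of the 3 treatment comparisons; limma-voom called none either. Same-numbered Alternaria and mock AGO1 libraries deviated together, and with a replicate block on those 6 libraries miR163(1-22) was the 1 of 21 that passed, beside 13.3% of all 248 sequences. Unadjusted p-values under 0.05 numbered 3 for Alternaria against mock (1.87% of all 267 sequences called), 8 for Alternaria against untreated (3.00% called) and 1 for mock against untreated (none called). Between mock and untreated total libraries none of the 27 passed with limma or limma-voom, with 4 at an unadjusted p under 0.05 and none of all 303 sequences called. The 22-nt to 21-nt ratio by family passed in none of the 6 treatment comparisons by limma, over 19 families in total libraries (3, 4 and 3 with an unadjusted p under 0.05 for Alternaria against mock, Alternaria against untreated and mock against untreated) and 15 families in AGO1 libraries (0, 1 and 0).

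Whether the change between Alternaria and mock leaves differed between AGO1 and total libraries was tested for 34 of the 39, and 1 passed, the MIR399d 5′ arm, at log2 -3.11 ± 0.44 (limma adjusted p = 0.000831; 1.55% of all 387 sequences called). That sequence was listed in the 3 Alternaria total libraries alone, and its difference reversed to 0.56 with zeros at the listing limit.

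By function, lists of families (which overlap, and were chosen with results of these data known) held few 22-nt sequences. Their counts stand beside 42.1% higher and 44.4% lower of all sequences between AGO1 and total libraries, and 11.6% higher between Alternaria and untreated total libraries, and no list was tested against these shares. Of the phosphate list (miR399, miR827, miR2111 and miR778), 3 sequences of 22 nt were tested, all from miR399 5′ arms. All 3 were called lower in AGO1 than in total libraries, but for the MIR399a and MIR399d 5′ arms no direction can be given over the 3 treatments. In total libraries 2 of the 3 were called higher after Alternaria than in untreated leaves. These include the MIR399d 5′ arm, for which no fold can be given. Of the silencing list (miR162, miR168, miR403 and miR838), 1 of 2 was lower in AGO1 libraries, and 1 of 2 was higher after Alternaria than in untreated leaves. In the auxin list 1 of 4, miR393a/b-5p, was called higher in AGO1 libraries and 3 were called lower. Among the 3 are miR167a-5p+1, for which no direction can be given over the 3 treatments, and miR164a+1. In the developmental list 3 of 7 were called higher and 4 lower. The 4 include miR157a/b-3p+1 and miR164a+1, whose total means of 3.75 and 3.33 lay just above the mean AGO1 listing limit of 3.25. In the defence-linked list 2 of 2 were called higher, miR472-3p and miR393a/b-5p. With library totals alone miR472-3p turned to -0.84, and miR393a/b-5p, at 0.37, did not pass. None of the 4 in the auxin list, 7 in the developmental list, 2 in the defence-linked list and 3 in the trigger list passed between Alternaria and untreated leaves in total libraries, where the median log2 change of all sequences was 0.49. No sequence of any list passed against mock. The copper list had 1 member, miR397a+1, listed in AGO1 libraries only, and the list of families without an annotated MIR gene had no sequence of 22 nt.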

How the data were processed

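Small RNA of 18 libraries (6 groups of 3), each sequenced in 2 runs, was analysed from the abundance table the authors deposited, which lists miRNA sequences by family with whole read numbers per run; per the file headers these are raw expression values of reads kept within a length window. FastQC, cutadapt, TAIR10, DESeq 1.2 and DESeq2 are named in the submitters' processing notes; the aligner and mismatch setting are not given in the sources used here. The table's own totals per library, as deposited by the authors, gave the genome-matched read counts. The 36 columns of normalised values and the authors' family-level comparison tables were not used. Labels give the NEXTflex kit for total libraries only.

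Runs were summed per library and the 498 entries reduced to 476 distinct sequences, of which 22 stood in several families, none of 22 nt. Libraries were scaled by trimmed mean of M-values (trims of 0.3 and 0.05), computed over the 18 libraries, or within a library type for treatment comparisons. limma 3.58.1 (R 4.3.3; trend and robust) was fitted to log2(scaled CPM + 1) of sequences listed in at least 3 libraries, of every length, with Benjamini-Hochberg adjustment and a threshold of 0.05. The added 1 makes log2 differences of low sequences smaller. Zeros that hide reads can enlarge such differences or turn their sign. That of miR777 between AGO1 and total libraries was 3.31, and -0.14 with zeros at the listing limit. Ratios of 22-nt to 21-nt reads per family used 1 read as pseudocount, and shares an exact permutation test (Python 3.11.15, scipy 1.17.1). Sequences were matched to the TAIR10.1 genome and its RefSeq annotation, and for 461 of 476 the number of matches equalled that in the table. The fit was also run on simulated data, and the outcome is not given here. Replicate numbers are taken from the labels and did not enter the fits; same-numbered libraries deviated together in Alternaria and mock AGO1 libraries alone (correlations 0.22 to 0.36 over 107 sequences), where a fit with the number as a block was added.

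Sequences named are the 10 most abundant of each library type, those called between treatments, the 8 with the largest and the 8 with the smallest AGO1 to total differences among called ones, the secondary siRNA triggers, and families called for the ratio; others are named where a count is small, after their values were seen. The sequences, lists and tests were chosen with earlier results of these data known. Any 2 libraries of a group differed in at least 220 sequences, so none was counted as a repeat. Counting limits cover counting error only.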

Additional observations from a re-analysis of the deposited data

Results flagged for a closer look

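The change of the MIR399d 5′ arm between Alternaria and mock leaves differed between AGO1 and total libraries by a test of that difference (an interaction term; log2 -3.11 ± 0.44, limma adjusted p = 0.000831), the only 1 of 34 sequences of 22 nt to pass, beside 1.55% of all 387 sequences in either direction. The sequence had 5.31, 11.6 and 7.08 scaled CPM in Alternaria total libraries and was listed at 0 in the mock total libraries and in every AGO1 library. These levels lie near or under the listing limits of the mock total libraries (10.4, 15.4 and 5.01), and with zeros set to the listing limit the difference was 0.56. It did not pass without any one of the 3 Alternaria total libraries.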

How the results depend on the processing

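The smaller share of 22-nt reads in AGO1 than in total libraries kept its direction when each library was left out (-1.89 to -1.68 percentage points). Without the most abundant 22-nt sequence of each type, the Alternaria minus mock share in total libraries was 0.24 and the mock minus untreated share in AGO1 libraries 0.012. With single libraries left out these shares ran between -0.676 and 0.180 and between -0.0411 and 0.0423. Single-library omissions changed the number of sequences called to 26 to 30 for AGO1 against total, 19 to 24 in Alternaria, 17 to 19 in mock and 17 to 21 in untreated leaves. They gave 2 to 8 for Alternaria against untreated in total libraries, 0 to 2 for mock against untreated in total libraries (2 without untreated total replicate 1), 0 to 3 for Alternaria against untreated in AGO1 libraries (3 without untreated AGO1 replicate 3, 1 without Alternaria AGO1 replicate 3) and 0 to 2 for the difference in the Alternaria change between library types (2 without mock total replicate 3). For the 22-nt to 21-nt ratio they gave 0 to 5 families for Alternaria against untreated in total libraries (5 without untreated total replicate 1), and 0 to 1 for mock against untreated in total libraries, Alternaria against untreated in AGO1 libraries and mock against untreated in AGO1 libraries.

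With the common listing limit 18 sequences were called between AGO1 and total libraries, 17 in Alternaria leaves, 2 for Alternaria against mock in total libraries and 2 for the difference between library types. With zeros at the listing limit, 28 were called in mock leaves, 32 in untreated leaves, 3 for Alternaria against mock and 3 for Alternaria against untreated in total libraries, and 0 for the difference between library types. A pseudocount of 10 gave 2 for Alternaria against mock in total libraries and 2 for the difference between types, and limma-voom 4 for Alternaria against mock. A filter of 6 libraries gave 2 for Alternaria against untreated in total libraries and 0 for the difference between types. Scaling to genome-matched reads gave 18 for Alternaria against untreated, 12 for mock against untreated, both in total libraries, and 3 for the difference between types. It moved the median log2 change of all sequences to 2.18 and 1.69 in the first 2. For the ratio, 6 families were called between AGO1 and total libraries where both lengths were in every library, and 2 for Alternaria against untreated in total libraries. A pseudocount at the listing limit gave 1 family for Alternaria against mock, 3 for Alternaria against untreated and 1 for mock against untreated, in total libraries.

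With zeros at the listing limit the log2 difference between AGO1 and total libraries turned to -1.14 for miR397a+1, -1.19 for miR5629, -0.14 for miR777, -1.37 for miR830-5p, -1.31 for miR833a-3p, -0.15 for miR833a-5p and -1.36 for miR853. That of the MIR399d 5′ arm turned to -0.91 for Alternaria against untreated and to 0.56 for the difference between types. miR472-3p turned to -0.84 with library totals alone (median of all sequences -1.27), and miR5996 to 1.18 and the MIR825 5′ arm to 1.25 with genome-matched reads. With contained pairs only, the fitted ratio was 2.96 for miR156, 7.89 for miR157, -6.29 for miR393 and 3.76 for miR447, but none of these is a measured turn: the miR157 pair was listed in no AGO1 library and the miR393 partner in no total library, and both lengths of miR156 and miR447 stood together in only 2 AGO1 libraries each, so the values rest on the pseudocount of 1 read. Zeros at the limit raise the shallower total libraries by construction; for the other changes the cause was not tested. Contained pairs in every library gave no value for AGO1 against total, since only 3 families had them. Over single sequences and families, 1172 alternatives kept call and direction, 92 lost the call and 16 reversed. Over 27 same-numbered pairs the correlations of deviations were -0.41 to 0.36, with 9 over 0.1, and in 1 of 9 pairs of groups, Alternaria AGO1 and mock AGO1, all 3 were over 0.1. A replicate block on those 6 libraries called 1 sequence and 0 families for Alternaria against mock; in the fit of all 9 AGO1 libraries it called 0. With a replicate block, 3 sequences were called for Alternaria against untreated in total libraries and 0 for the difference between types, 28 between AGO1 and total libraries, and 16 families for the ratio. Depth limits sequences under 4.72 to 20.0 scaled CPM in total libraries.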
